A study of Homo sapiens with 8 samples.

Results

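HIEC6, a line labelled as normal intestinal epithelium, was compared with 3 colorectal cancer (CRC) lines, DLD1, HCT116 and HCT8, to see which genes lay outside the range of the CRC lines and which cell identity those genes described. Total RNA depleted of ribosomal RNA was sequenced in 8 libraries, of which these 4 were used, and the library of the second normal line, NCM460, and the 3 CRC libraries under hypoxia were left out of the comparison. Each line had 1 library, untreated, from cells grown in DMEM with fetal bovine serum and labelled with the same passage. The study's methods list HCT8 and DLD1 as mutant for APC and give no genotype for HIEC6 or HCT116. HIEC6 was established from fetal small intestine, and DLD1 and HCT8 are known to come from the same donor, so that the CRC lines were not fully independent of each other. Genes entered when they had 50 or more counts in HIEC6 or in at least 2 of the CRC lines, which kept 15243 of the 54261 genes in the table.

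Epithelial cells are held together by cadherins, claudins and desmosomes, and in the gut they carry the surface protein EPCAM and the transcription factor CDX2. Mesenchymal cells instead use N-cadherin (CDH2) and the filament protein vimentin (VIM) and secrete fibrillar matrix. The repressors ZEB1 and ZEB2 bind E-box motifs in epithelial promoters and switch such genes off, and the microRNAs of the miR-200 family, made in epithelial cells, repress ZEB1 and ZEB2 in turn.

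Library totals ran from 51213432 to 56712943 counts. Levels are given as counts or as CPM, counts divided by the library size after TMM scaling, and a single count was worth 0.01715 to 0.01962 CPM. For the correlations alone, CPM was taken on total counts without TMM scaling. Over the genes past the filter, HIEC6 had a Pearson correlation of log2(CPM + 1) of 0.785 with DLD1, 0.8 with HCT116 and 0.771 with HCT8. Among the CRC lines it was 0.86 for DLD1 and HCT116, 0.872 for HCT116 and HCT8 and 0.927 for DLD1 and HCT8. The filter takes in genes of HIEC6 alone but not those of a single CRC line, which lowers the values for HIEC6. Over the 12239 genes that passed on both sides, HIEC6 had between 0.821 and 0.831 with the CRC lines, which had between 0.858 and 0.915 with each other. These are descriptions across genes, which are not replicates. The labels' RNA extraction text names prefrontal cortex. Of 18 neural and glial markers, 11 had under 4 counts in HIEC6, among them GFAP, OLIG2, MOG and STMN2 at 0, and none was called higher.

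A gene was called higher when HIEC6 was at least 4 times the highest CRC line, and lower when the lowest CRC line was at least 4 times HIEC6, with levels under 3 counts raised to 3 counts. By this rule 747 genes were higher (4.9% of those tested) and 964 were lower (6.32%), and 13532 were not called. Of the higher genes, 564 had passed the filter through HIEC6 alone and so had to differ from most CRC lines, as did 744 of the lower genes, which had passed through the CRC lines alone. Among the 12239 genes that passed on both sides, 183 (1.5%) were higher and 220 (1.8%) were lower. By any amount, HIEC6 was above all 3 CRC lines at 33.8% of genes, below all of them at 35.3% and between them at 30.9%. With 1 library against 3 there was no spread to measure within HIEC6, and an exact one-sided permutation test could not give a p below 0.25, so the calls are descriptions of these libraries. Intervals given with folds are exact 95% intervals for counting error only.

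**Figure D1:**
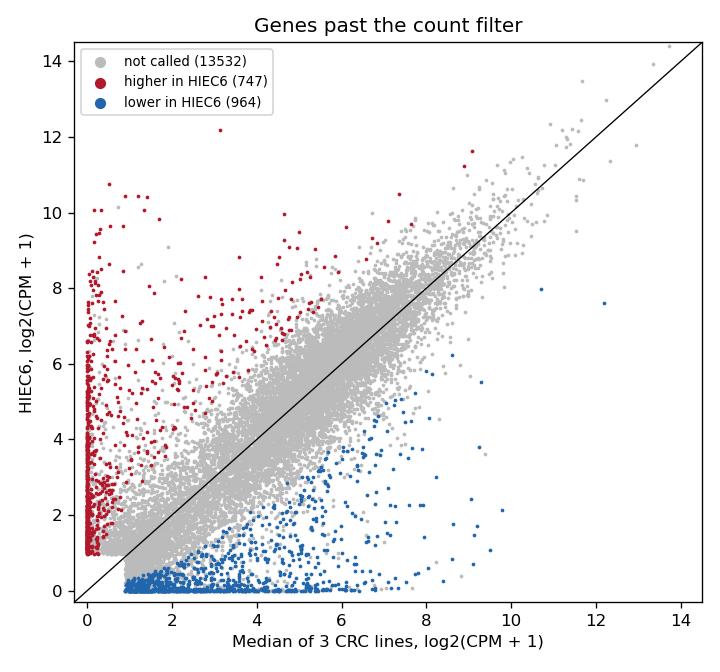
Each point is 1 of 15243 genes past the count filter. The x axis is the median of the 3 CRC lines and the y axis is HIEC6, both as log2(CPM + 1), and the line marks equal levels. The 747 genes called higher in HIEC6 lie along the left side and above the line, and the 964 called lower lie along the bottom and below it, many of them near 0 on the side where they were low.

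The 4 markers chosen for cell class, EPCAM, CDH1, VIM and CDH2, went against the epithelial label of HIEC6, while its keratins, given further on, did not, and HIEC6 is called here by its line name. EPCAM, the epithelial surface protein, had 10 counts in HIEC6 against 33357, 14373 and 19381 in DLD1, HCT116 and HCT8 (the order used from here on). CDH1, which encodes E-cadherin, had 172 counts in HIEC6 against 54853, 6602 and 51184. Both genes were lower in HIEC6 than in every CRC line. The lowest CRC line exceeded HIEC6 1446-fold for EPCAM (interval 786 to 3016) and 38.6-fold for CDH1 (interval 33.2 to 45.2).

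VIM had 69375 counts in HIEC6 against 87, 324 and 54. CDH2 had 3161 counts against 40, 0 and 0. HIEC6 was the only library of the 4 with a high level of either gene. It exceeded the highest CRC line 213-fold for VIM (interval 191 to 238) and 80.8-fold for CDH2 (interval 59.2 to 113). On GRCh37 these genes lie at chr10:17270240-17279592 (VIM, forward strand), chr18:25512843-25757910 (CDH2, reverse strand), chr2:47572297-47614740 (EPCAM, forward strand) and chr16:68771195-68869440 (CDH1, forward strand). All 4 were called under each normalization. When a count model let the lone HIEC6 library vary like the CRC lines, DESeq2 gave Benjamini-Hochberg adjusted p values of 9.59e-13 for VIM, 1.75e-40 for EPCAM, 2.47e-09 for CDH1 and 0.345 for CDH2, and edgeR's quasi-likelihood test gave 0.117, 0.0983, 0.185 and 0.258. The calls of these markers thus did not hold in edgeR, which estimated a biological coefficient of variation of 0.682.

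**Figure D2:**
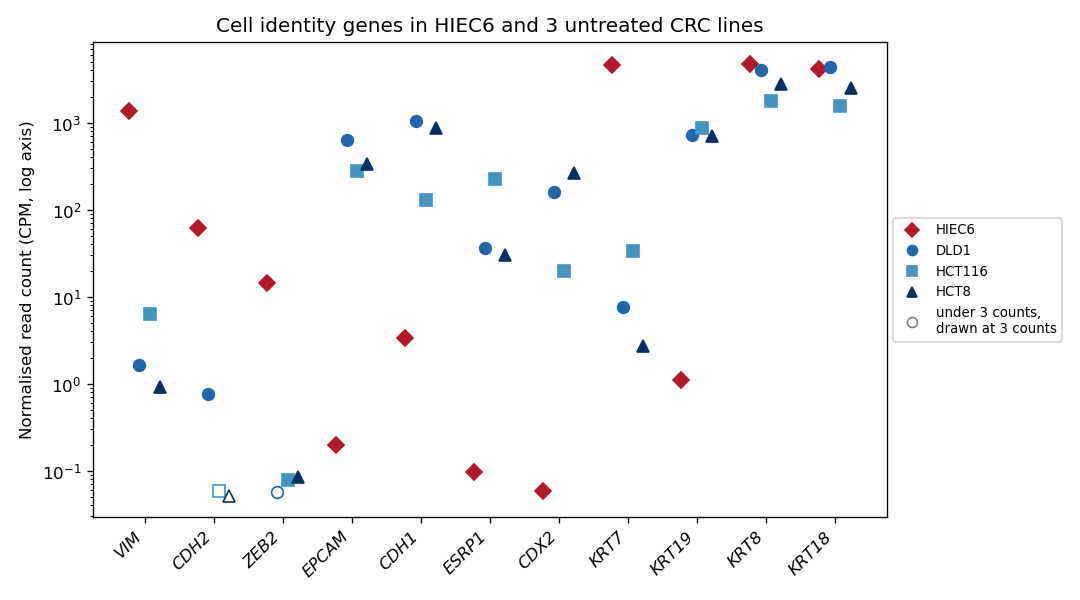
CPM on a log axis is shown for 11 genes, with 1 symbol per library (diamonds for HIEC6, circles for DLD1, squares for HCT116 and triangles for HCT8) and open symbols where a library had under 3 counts. VIM, CDH2, ZEB2 and KRT7 are higher in HIEC6 than in every CRC line, EPCAM, CDH1, ESRP1, CDX2 and KRT19 are lower, and KRT8 and KRT18 lie near the CRC lines.

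Low epithelial message extended over the junctions. Of 30 junction and polarity genes, 30 passed the filter, 24 were called lower and 0 higher, and 29 were below every CRC line. The median log2 ratio of HIEC6 to the CRC median was -5.88, beside -0.04 over all genes past the filter. Of the 24, 12 had passed on both sides. The list summed to 665 CPM in HIEC6 against 6644, 3919 and 5613 CPM in the CRC lines.

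Among the tight junction proteins, CLDN3 had 0 counts in HIEC6 and 624, 1021 and 2008 in DLD1, HCT116 and HCT8, so the lowest CRC line was at least 203-fold higher. MARVELD3 was likewise at 0 counts, with 1893, 1130 and 1124 in the CRC lines (at least 330-fold). CLDN4 had 86 counts against 13387, 12447 and 11337, and CLDN7 had 197 against 12367, 7957 and 11221. These claudins were low in HIEC6 alone. HIEC6 was below every CRC line for each of them, as it was at 35.3% of all genes past the filter. Occludin (OCLN) had 22 counts in HIEC6 and 297, 168 and 627 in the CRC lines.

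The membrane serine protease ST14 and its inhibitors were low as well. ST14 had 224 counts in HIEC6 and 28659, 10456 and 30705 in the CRC lines. Its inhibitor SPINT1 had 18 counts against 19654, 7874 and 12347, and SPINT2 had 117 against 34851, 18308 and 33930. The lowest CRC line exceeded HIEC6 47.0-fold, 440-fold and 157-fold for the 3 genes. RAB25, a small GTPase of apical recycling, had 9 counts against 5765, 4736 and 5325 (520-fold). CRB3, an apical polarity protein, had 29 counts against 2060, 872 and 1821 (30.3-fold).

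Desmosomal genes were uneven. DSC2, a desmosomal cadherin, had 9 counts in HIEC6 against 602, 3472 and 4993 (65.4-fold). DSP, which encodes desmoplakin, had 3783 counts in HIEC6 and 19831, 23007 and 22687 in the CRC lines (5.13-fold), and DSG2 had 2845 counts against 13383, 11902 and 17668 (4.21-fold). PKP3, a desmosomal plaque protein, was not called, with 5573 counts against 12737, 6554 and 7158. DSC2 was thus nearly absent from HIEC6, and DSP, DSG2 and PKP3 were not. The 6 members that were not called were PKP2, PKP3, AP1M2, CD24, PATJ and LLGL2. CD24 was the one member above every CRC line, with 12612 counts against 9594, 822 and 709.

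Many of the transcription and splicing factors that maintain epithelial genes were low as well. Of 15 such regulators, 14 passed, 8 were called lower and 0 higher. ESRP1, an epithelial splicing factor, had 5 counts in HIEC6 and 1882, 11400 and 1782 in the CRC lines (314-fold), and ESRP2 had 33 counts against 7695, 2613 and 4495 (79.7-fold). GRHL2, an activator of junction genes, had 11 counts against 6163, 2152 and 6084 (197-fold). OVOL1, OVOL2, EHF and FOXA3 were also called lower. The epithelial factors ELF3 and KLF5 were not called: ELF3 had 3678 counts against 3825, 3394 and 4957, and KLF5 had 9136 against 16787, 5174 and 29239. FOXA1 was not called either, with 697 counts against 9391, 81 and 11270. TFAP2A was the 1 regulator above every CRC line, with 2947 counts against 453, 1502 and 811 (1.95-fold, not called), while 9 were below every CRC line. Of the 8 calls, 1 (EHF, 90 counts against 7355, 8011 and 3075) had passed the filter on both sides.

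The E-box to which ZEB and SNAI proteins bind, CACCTG or CAGGTG (the same motif read on both strands), was searched in the 250 bases before the annotated start of each gene (RefSeq, GRCh38.p14, first listed start). Of the 30 junction and polarity genes, 17 had a window and 8 of these (47.1%) held the motif, beside 17.5% of 27305 promoters. In the part of the list called lower it was 6 of 14 (42.9%), in the epithelial regulators 2 of 8 (25.0%) and in the fibroblast list 1 of 16 (6.25%). Members that were not called held it too: AP1M2 and PATJ in the junction list, and ELF3 and FOXA1, which were the 2 regulators with a match. EPCAM and CDH1 had no window, nor did ESRP1, ESRP2, GRHL2, OVOL1 and OVOL2, so the shares do not cover these genes. A match is a run of letters in a window and not a bound site. The promoters of CRB3, which held 5 matches, and of RAB25, which held 1, are shown because both genes were among the lower genes of the list, with the E-box in capitals and the start of transcription just after the last base. CRB3 was read at chr19:6464021-6464270 and RAB25 at chr1:156060910-156061159, both on the forward strand.
CRB3: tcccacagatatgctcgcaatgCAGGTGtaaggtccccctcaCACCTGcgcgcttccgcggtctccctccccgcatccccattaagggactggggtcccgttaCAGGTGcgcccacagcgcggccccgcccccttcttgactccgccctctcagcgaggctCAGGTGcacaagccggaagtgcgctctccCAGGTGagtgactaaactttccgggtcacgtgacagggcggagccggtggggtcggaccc
RAB25: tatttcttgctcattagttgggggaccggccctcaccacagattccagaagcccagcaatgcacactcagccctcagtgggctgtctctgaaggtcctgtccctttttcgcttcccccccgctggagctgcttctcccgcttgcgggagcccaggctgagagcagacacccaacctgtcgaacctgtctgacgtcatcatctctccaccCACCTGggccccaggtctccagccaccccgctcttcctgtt

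The miR-200 family, looked at after the values of ZEB1 and ZEB2 had been seen, comes from clusters on chromosomes 1 and 12 and falls into 2 groups by seed. The mature forms are shown from RefSeq (GRCh38.p14) with the seed, bases 2 to 8, in capitals, because the seed is what pairs with the messages of ZEB1 and ZEB2.
hsa-miR-200b-3p: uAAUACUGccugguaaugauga
hsa-miR-429: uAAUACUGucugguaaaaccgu
hsa-miR-200c-3p: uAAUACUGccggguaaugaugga
hsa-miR-200a-3p: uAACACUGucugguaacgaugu
hsa-miR-141-3p: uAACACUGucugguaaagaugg

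The counts of the 5 precursor genes summed to 0 in HIEC6 and to 85, 35 and 91 in the CRC lines. MIR429, for example, had 0 counts in HIEC6 and 28, 12 and 31 in the CRC lines. HIEC6 was the library without a count for any of the family, but none of the 5 genes passed the filter, and libraries of long RNA count pieces of the precursor and not the mature microRNA. ZEB2, their target, had 746 counts in HIEC6 and 1, 4 and 5 in the CRC lines (170-fold over the highest), and ZEB1 had 954 against 53, 369 and 71 (2.57-fold, not called).

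Keratins, the filament proteins of epithelia, did not follow the junction genes. KRT8 had 243272 counts in HIEC6 against 214315, 90733 and 161341 in the CRC lines, and KRT18 had 211257 against 231663, 80407 and 147167. For this keratin pair of simple epithelium, HIEC6 lay 1.16-fold above the highest CRC line and within the range, in that order. KRT7 had 237908 counts in HIEC6 and 404, 1711 and 158 in the CRC lines (138-fold over the highest), and was the gene with the highest CPM among those called higher. KRT19 went the other way, with 56 counts in HIEC6 and 37777, 44643 and 41118 in the CRC lines (646-fold under the lowest). Over all 67 keratin genes in the table, a family chosen after its values were seen, 12 passed, with KRT7, KRT17, KRT34 and KRT81 called higher and KRT15 and KRT19 called lower. KRT17, a keratin of basal and stressed epithelium, had 14958 counts against 6, 7 and 52 (327-fold). KRT81 and other hair keratins have near-identical copies, so their counts are uncertain. Without DLD1, 2 genes of the list of simple keratins were higher in place of 1.

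Intestinal identity was low in HIEC6 at the level of its transcription factors. Of 16, 12 passed, 7 were called lower and 0 higher, and 10 had under 4 counts in HIEC6. CDX2 had 3 counts in HIEC6 and 8345, 1010 and 15531 in the CRC lines, a ratio to the lowest of 339 with an interval of 116 to 1645. SOX9, expressed in crypts, had 122 counts against 23766, 19963 and 14439 (104-fold). HNF4A had 44 counts against 2208, 533 and 3979 (12.2-fold). HNF4G and PDX1 were also called lower. GATA6 was not called, with 405 counts against 4461, 464 and 6673. Summed over the list, HIEC6 had 42.7 CPM and the CRC lines 1220, 489.5 and 1079 CPM.

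For products of differentiated gut cells, the CRC lines differed widely among themselves. Of 30 such genes, 17 did not pass the filter, 2 were called higher, 1 lower and 10 were not called. The summed level was 44.5 CPM in HIEC6 and 17.6 in HCT116, against 566 in DLD1 and 607 in HCT8. AGR2, a secretory cell protein, had 3 counts in HIEC6 and 4 in HCT116, against 11171 in DLD1 and 7697 in HCT8, and CDH17, a cadherin of the gut, had 2 and 4 against 7351 and 7055. Both HIEC6 and HCT116 were thus near 0 for AGR2 and CDH17. Other members separated them, as TSPAN8 had 552 counts in HIEC6 against 6750, 2 and 3668 in the CRC lines. Without HCT116, 8 genes of the list were lower in place of 1, and without DLD1, 3 were. The 2 higher genes were MUC1, with 1056 counts against 78, 40 and 11, and ANPEP, with 76 against 0, 13 and 1, and neither was higher when the hypoxia libraries were added to the CRC range. DPP4, a brush border peptidase, was the lower gene, with 1 count against 277, 537 and 426, a raw ratio of 271 with an interval of 48.2 to 10737.

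Mesenchymal regulators ran the other way. Of 14, 11 passed, 6 were called higher (VIM, CDH2, ZEB2, SNAI2, TWIST2 and FOXC2) and 0 lower, and the summed level was 1524 CPM in HIEC6 against 16.8, 97.3 and 40.5 CPM in the CRC lines. VIM made up most of that sum, and the other 13 genes summed to 171 CPM in HIEC6 against 15.2, 90.9 and 39.6 CPM. TWIST2 had 1132 counts in HIEC6 and 0 in every CRC line, at least 375-fold higher against the floor of 3 counts per library. FOXC2 had 866 counts against 0, 1 and 0, a raw ratio of 861 with an interval of 154 to 34038. SNAI2 had 209 against 2, 28 and 3 (7.42-fold). SNAI1 was not called and lay within the range, with 347 counts against 209, 655 and 310. Several factors that mark mesenchyme of the body were near 0 in HIEC6: CDH11 had 1 count, PRRX1 had 4 and PRRX2 had 2. In the CRC lines CDH11 had 0, 0 and 1 counts, PRRX1 13, 2 and 0 and PRRX2 0, 1224 and 0. Of the 6 calls, 5 had passed the filter through HIEC6 alone, VIM being the exception.

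The matrix genes split. Of 28 fibroblast markers, 18 passed, 7 were called higher and 0 lower, beside 4.9% and 6.32% of all genes past the filter. Of the 7 higher genes, 2 (FBN1 and FN1) had passed on both sides. The rest had passed through HIEC6 alone, so part of this count was set by the filter. FBN1, a microfibril protein, had 54905 counts in HIEC6 and 62, 178 and 89 in the CRC lines (307-fold), and COL5A1 had 41022 against 20, 23 and 76 (614-fold). MFAP5, another microfibril protein, had 15003 counts against 7, 1 and 3 (2192-fold, interval 1064 to 5452). ENG, FSTL1, FN1 and LOX were the other 4, with FN1, which encodes fibronectin, at 6616 counts against 280, 742 and 14 (8.86-fold).

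Other members of the list were nearly silent in the same library. HIEC6 had 2 counts of PDGFRA, 2 of THY1, 4 of DCN, 19 of LUM, 1 of FAP, 1 of POSTN and 0 of MMP2. The CRC lines were near 0 for these genes too, with at most 10 counts (FAP in DLD1). The fibrillar collagen gene COL1A2 had 26 counts in HIEC6 and 40, 49 and 66 in the CRC lines, and COL3A1 had 66 against 73, 68 and 56. COL1A1 was above every CRC line without reaching the call, with 2608 counts against 106, 714 and 421 (3.63-fold), as were PDGFRB, with 488 counts against 10, 16 and 193 (2.87-fold), and TIMP3, with 10382 against 990, 291 and 5663 (2.08-fold). Of the 18 that passed, 10 were above every CRC line and 1, SPARC, was below every one (14 counts against 51, 248 and 38). Members within the range included COL6A1 (1726 against 25, 9889 and 10818), S100A4 (1474 against 436, 10571 and 6715) and NT5E (1321 against 11336, 5741 and 915). The summed level of the list was 3545 CPM in HIEC6 and 275, 740 and 442 in the CRC lines, and in HIEC6 FBN1 gave 1071 CPM of it, COL5A1 800 CPM and FSTL1 756 CPM. Contractile genes were not higher: of 16, 10 passed and 0 were called in either direction, with ACTA2 at 307 counts against 149, 406 and 451. CNN1 and MYH11 were at 0 in HIEC6, against 0, 0 and 0 and against 1, 0 and 0.

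Basement membrane genes, made by epithelial and mesenchymal cells alike, showed 6 of 14 passed genes higher and 1 lower. Of the 6 higher genes, 3 had passed the filter through HIEC6 alone. COL4A1 had 4255 counts in HIEC6 and 476, 10 and 71 in the CRC lines (9.14-fold), and COL4A2 had 10795 against 928, 8 and 459 (11.9-fold). COL4A5, COL4A6, LAMA1 and LAMA4 were the other 4. The common chains LAMB1 and LAMC1 were not called, at 11590 counts against 9575, 6205 and 8452 and at 24444 against 8307, 8789 and 7865. COL7A1, the anchoring fibril collagen of skin and named here from the collagen family after its values were seen, had 16134 counts against 326, 297 and 310 (50.6-fold).

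**Figure D3:**
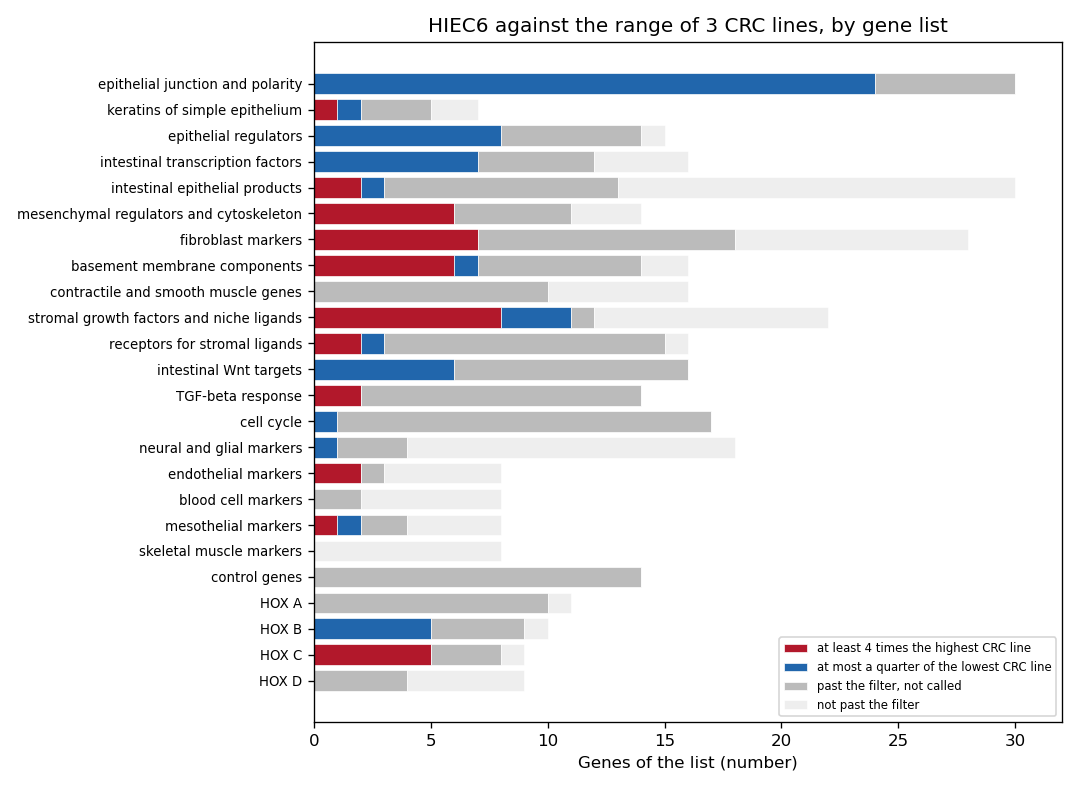
Each bar is 1 gene list and its length is the number of genes, split into those at least 4 times the highest CRC line (red), those where the lowest CRC line was at least 4 times HIEC6 (blue), those past the filter but not called (grey) and those not past the filter (light grey). Blue fills 24 of 30 genes of the junction and polarity list, red fills 6 of 14 mesenchymal regulators and 5 of 9 HOX C genes, and the contractile, blood cell, skeletal muscle, control, HOX A and HOX D lists hold neither colour.

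Growth factors and niche ligands of the stroma were called in 11 of the 12 genes that passed, 8 higher and 3 lower, while 10 more did not pass. Of the 12, 5 had passed through HIEC6 alone and 2 through the CRC lines alone, so that part of this count was set by the filter, and 3 higher and 1 lower call had passed on both sides. WNT5A, a non-canonical Wnt ligand, had 8857 counts in HIEC6 and 239, 1 and 0 in the CRC lines (37.9-fold), and FGF2 had 3645 against 310, 459 and 2 (7.89-fold). RSPO3, which potentiates Wnt signals in crypts, had 204 counts against 1, 1 and 1, a raw ratio of 203 with an interval of 36.0 to 8048. IGFBP3, IGFBP7, IL6, BMP2 and NRG1 were the other 5, and 5 of the 8 stayed higher when the hypoxia libraries joined the CRC range. BMP4 was lower, with 423 counts against 33015, 4602 and 8588 (10.9-fold), as were IGF2, with 0 counts against 43, 50 and 59 (at least 14.0-fold), and PTGS2, with 1 against 148, 45 and 201. Other ligands that subepithelial fibroblasts supply, HGF, FGF7, FGF10, CXCL12 and GREM1, had 0 counts in HIEC6. In the CRC lines HGF had 0, 0 and 8 counts and the others 0 in every line, so this silence was not particular to HIEC6.

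Of 16 receptors for such ligands, 15 passed, of which 12 were not called and 8 were above every CRC line, beside 33.8% of all genes past the filter. Their median log2 ratio to the CRC median was 1.38. CXCR4, the CXCL12 receptor, had 3879 counts in HIEC6 against 0, 18 and 6 (214-fold), and LIFR, which binds LIF, had 14351 against 7, 2227 and 4 (6.41-fold). These 2 were the genes called higher, and neither was higher when the hypoxia libraries were added, while 4 receptors were higher without HCT116 and 4 without HCT8. Both CXCR4 and LIFR had passed the filter through HIEC6 alone. FGFR2 was lower, with 68 counts against 424, 1766 and 1225 (6.10-fold). Among those not called, IGF1R had 18015 counts against 2604, 3093 and 6067 (3.38-fold over the highest), and AXL had 14980 against 75, 6833 and 147 (2.18-fold). EGFR had 8358 counts against 5507, 7417 and 5734, and MET lay within the range, with 28747 against 8649, 33891 and 12595.

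Targets of canonical Wnt signalling in the gut were in part low. All 16 passed, 6 were called lower and 0 higher (2 higher without HCT116). AXIN2, the feedback inhibitor most used as a readout, had 91 counts in HIEC6 and 38325, 922 and 32664 in the CRC lines (10.2-fold under the lowest). RNF43, an E3 ligase that removes Wnt receptors, had 9 counts against 9504, 6747 and 15881 (754-fold), and NKD1 had 18 against 1360, 1938 and 10432 (73.9-fold). EPHB3, TCF7 and TNFRSF19 were the other 3. Targets with broader regulation were not called: MYC had 9880 counts against 7439, 21652 and 11916, CD44 had 22462 against 2154, 62621 and 1682, and CCND1 had 23811 against 61780, 44845 and 53716. Of the 14 genes of the TGF-beta response, 2 were called higher. These were PMEPA1, with 5472 counts against 691, 113 and 441 (8.10-fold), and SKIL, with 6069 against 1410, 1366 and 1070 (4.40-fold), and the list had 1 higher gene under total-count or upper-quartile scaling or with the hypoxia libraries added, and 4 without HCT116.

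Of 17 cell cycle genes, 16 were not called and 0 were higher (2 without HCT116). Of the 17, 10 were above every CRC line, beside 33.8% of all genes past the filter, and the median log2 ratio was 0.60. MKI67 had 19065 counts in HIEC6 and 27247, 28776 and 36091 in the CRC lines, and TOP2A had 31907 against 21851, 10031 and 26314. AURKA, a mitotic kinase, had 13825 counts against 4794, 3366 and 4094 (2.95-fold over the highest), and CDK1 had 12242 against 4979, 5503 and 5964 (2.21-fold). The called gene was TERT, the catalytic subunit of telomerase, with 18 counts against 83, 223 and 188 (4.51-fold under the lowest). CDKN2A, the cell cycle inhibitor locus, differed among the CRC lines themselves, with 11399 counts in HIEC6 and 3208 in HCT116 against 3 in DLD1 and 5 in HCT8. Control genes were not called in any of 14 cases, although 10 of them were above every CRC line. Their median log2 ratio was 0.76, so the shift of the cell cycle list was no larger than that of the control genes. ACTB had 11462 CPM in HIEC6 against 3900 ± 1188 (SD, n = 3) in the CRC lines, and its log2 ratio to the CRC median was 1.81, and between 1.57 and 1.86 under the other scalings.

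Markers of other cell classes gave few calls. Among 8 endothelial markers, CDH5 had 306 counts in HIEC6 and 0 in every CRC line (at least 101-fold higher) and PECAM1 had 81 against 3, 9 and 11 (8.37-fold), while KDR, CLDN5 and EMCN were at 0 and TEK and ERG had 1 count each. That list summed to 8.05 CPM in HIEC6 and to 6.26, 1.65 and 1.72 CPM in the CRC lines. With the hypoxia libraries added, 1 endothelial gene stayed higher. Among 8 mesothelial markers, PRG4 was higher, with 122 counts against 0, 0 and 0 (at least 40.4-fold), and LRRN4 lower, while WT1 and CALB2 were at 0. MSLN, which encodes mesothelin, was not called, with 6728 counts against 124, 2375 and 13812, nor was UPK3B, with 162 against 85, 30 and 48. No blood cell marker was called, and of 8 skeletal muscle markers none passed the filter. The neural list gave 1 call, MBP, which was lower with 614 counts against 3639, 3835 and 4013, and without HCT116 it gave 2 higher genes. These lists describe messages in bulk RNA, in which fewer cells of a type and less RNA per cell cannot be told apart.

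The HOX clusters, whose genes keep a record of position along the body axis, differed by cluster. Of the HOX C genes, 8 of 9 passed, all 8 were above every CRC line and 5 were called higher (HOXC5, HOXC6, HOXC10, HOXC11 and HOXC13). Over all genes past the filter, 33.8% were above every CRC line and 4.9% were called higher. Of the 8, 5 had passed the filter through HIEC6 alone, and 2 of the 5 calls (HOXC6 and HOXC11) had passed on both sides. HOXC10 had 4295 counts in HIEC6 and 26, 151 and 6 in the CRC lines (28.3-fold), and HOXC13 had 3671 against 0, 270 and 1 (13.5-fold). The summed level of the cluster was 207 CPM in HIEC6 and 5.89, 23.3 and 6.33 in the CRC lines.

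HOX B ran the other way, with 9 of 10 passed, 8 below every CRC line and 5 called lower (HOXB2, HOXB3, HOXB4, HOXB8 and HOXB9). Over all genes past the filter, 35.3% were below every CRC line and 6.32% were called lower. Of the 5 lower HOX B genes, 3 had passed on both sides. HOXB8 had 38 counts in HIEC6 against 3635, 2290 and 4555 (60.6-fold), and HOXB3 had 667 against 38880, 2878 and 35372 (4.34-fold). HOXB13 did not follow its cluster, with 575 counts against 570, 604 and 796. No HOX A or HOX D gene was called. HOX A levels varied widely among the CRC lines, as for HOXA13 with 539 counts in HIEC6 and 6983, 499 and 14 in the CRC lines. Neighbouring HOX genes have overlapping and antisense transcripts, and whether the counting used strand is not given in the sources used here.

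**Figure D4:**
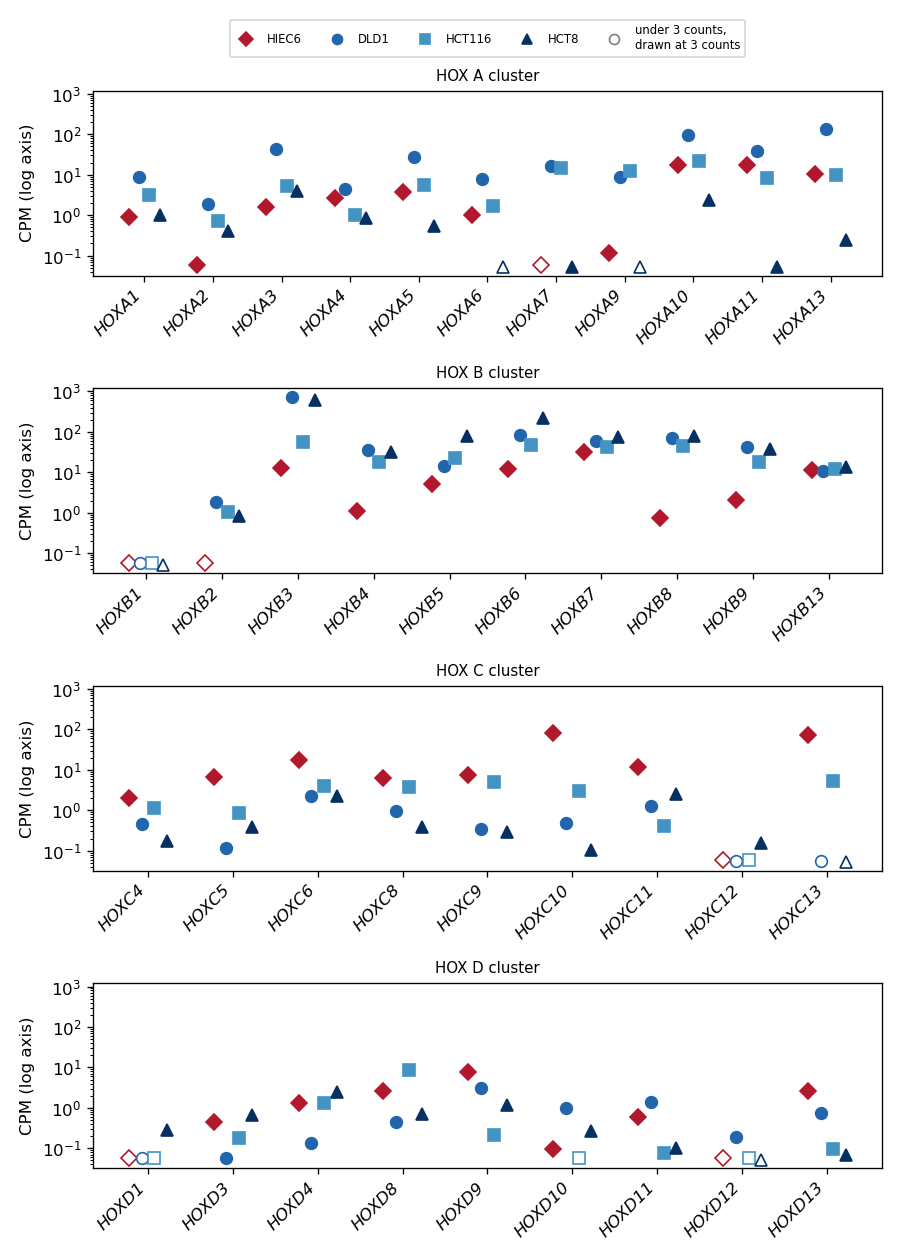
CPM on a log axis is shown for the genes of the 4 HOX clusters in their number order, with 1 symbol per library as in the plot of identity genes and open symbols under 3 counts. HIEC6 lies above the 3 CRC lines at 8 of the HOX C genes and below them at 8 of the HOX B genes. Among genes past the filter, HIEC6 lies below all 3 lines at 2 of 10 in HOX A and otherwise within their range. In HOX D it lies above all 3 lines at 2 of 4 and otherwise within their range.

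The 15 higher genes with the largest ratios had all passed the filter through HIEC6 alone. FBN2, which encodes fibrillin-2, had 54736 counts in HIEC6 and 5, 6 and 9 in the CRC lines (6914-fold, interval 3642 to 15121). EFEMP1, a fibulin, had 16915 counts against 2, 2 and 2, a raw ratio of 8407 with an interval of 2327 to 69421. SRGN, a proteoglycan of secretory granules, had 30784 counts against 6, 2 and 8 (4374-fold), and WISP2, a matricellular protein, had 17820 against 5, 4 and 3 (3645-fold). All were at or near 0 in the CRC lines.

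SMOC1, EDIL3 and BMP5 were also among them. DIO2, which activates thyroid hormone, had 55428 counts against 13, 19 and 10 (2900-fold), MYPN, a protein of the sarcomere, had 35144 against 3, 10 and 9 (3493-fold), and LPL, lipoprotein lipase, had 4934 against 0, 1 and 0, a raw ratio of 4904 with an interval of 880 to 193750. BASP1, C11orf86, SLC12A3 and SNORD116 completed the 15 genes with the largest ratio, besides MFAP5. SNORD116 is a family of near-identical copies, so its count is uncertain. By level, KRT7 was followed by SQSTM1 (162633 counts against 28169, 24517 and 38483, 4.80-fold) and TXNRD1 (122673 against 29960, 24162 and 25604, 4.19-fold), then by COL12A1, PTRF, CPS1, L1CAM, VIM, DIO2 and FBN1. L1CAM, an adhesion protein of neurons, had 70835 counts against 11, 1125 and 50 (62.6-fold), and CPS1, a urea cycle enzyme, had 71420 against 25, 4052 and 76 (17.5-fold). These high genes thus held cytoskeletal, matrix, metabolic and stress proteins together.

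On the lower side, CNN3, an actin-binding calponin, had 1 count in HIEC6 and 5784, 5262 and 9996 in the CRC lines, a raw ratio of 5294 with an interval of 950 to 209140. GSTP1, a glutathione transferase, had 33 counts against 39145, 22677 and 31936 (691-fold). IGFBP2 had 3 counts against 3828, 7270 and 11769, a ratio of 1248 with an interval of 427 to 6053. Each was low in HIEC6 alone. The 15 genes with the largest ratio on this side also held EPCAM, RNF43, KRT19, GLB1L2, GALNT12, HOOK1, PARM1, TRIM4, KCNQ1OT1, RHBDD1 and EPHA1. By level, FAT1, an atypical cadherin, led with 10044 counts against 257665, 207873 and 271940 (20.8-fold), followed by TPT1 (12923 against 67190, 85464 and 98180, 5.08-fold), KRT19, ASNS, GSTP1, DSP, SPINT2, HIST1H4D, EPCAM and SOX9. TPT1 has many pseudogenes and HIST1H4D has sister genes with the same protein, so that their reads may be shared with copies.

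Further loci with near-identical copies were named after their values were seen. MAGEA1, a cancer-testis antigen, had 3173 counts in HIEC6 and 0 in every CRC line (at least 1051-fold higher), and was the 1 gene of 15 MAGEA entries that passed the filter. ALPP, placental alkaline phosphatase, had 51070 counts against 1255, 11 and 3430 (16.9-fold), and its intestinal relative ALPI had 478 against 4, 0 and 439. Reads may have been split between these copies.

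By kind of gene, 528 of 11807 protein-coding genes (4.47%) were higher and 717 (6.07%) lower. Of 817 long non-coding RNAs, 89 (10.9%) were higher and 76 (9.30%) lower. Among 144 small nucleolar RNAs, 0 were higher and 3 lower. Many non-coding genes overlap coding ones, so their counts are less certain.

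Placed on chromosomes with the GENCODE annotation of GRCh37, which matched 13125 genes by symbol, 12692 of them on autosomes, the ratio of HIEC6 to the CRC lines was uneven. The median log2 ratio to the CRC median was -1.15 over 184 genes of chromosome 18, -0.93 over 253 of chromosome 13, -0.59 over 483 of chromosome 4 and -0.43 over 888 of chromosome 2. It was 0.48 over 439 genes of chromosome 14 and 0.39 over 712 of chromosome 12. For chromosome 18 the medians were -1.26 against DLD1, -1.05 against HCT116 and -1.06 against HCT8, while the 3 pairs of CRC lines differed by 0.01 to 0.06. On chromosome 13 the CRC lines differed among themselves, by -0.44 for DLD1 against HCT8 and -0.49 for HCT116 against HCT8. HIEC6 was below every CRC line at 66.8% of chromosome 18 genes and 69.2% of chromosome 13 genes. CDH2, on chromosome 18, was higher in HIEC6 all the same, and DSG2 and DSC2 on the same chromosome were lower. Whether these medians have a part in the calls of genes on the same chromosomes was not tested.

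**Figure D5:**
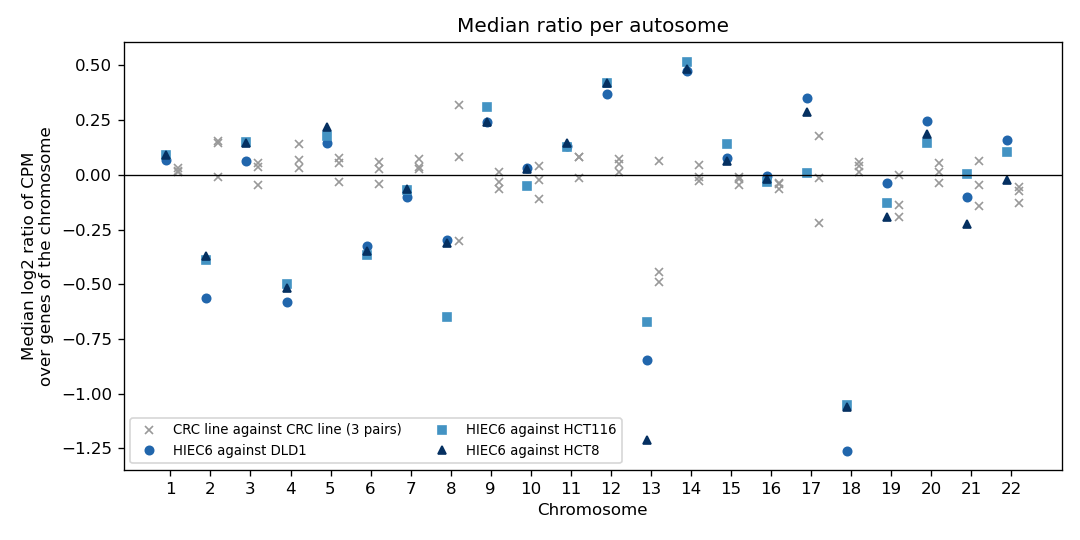
The x axis is the autosome and the y axis the median log2 ratio of CPM over its genes. Filled symbols are HIEC6 against DLD1, HCT116 and HCT8, and grey crosses are the 3 pairs of CRC lines. Filled symbols of chromosome 18 lie between -1.26 and -1.05, while its crosses lie near 0.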

How the data were processed

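Total RNA of HIEC6, DLD1, HCT116 and HCT8 was treated by the authors to remove ribosomal RNA and sequenced on an Illumina instrument. The authors deposited raw read counts per gene symbol, with no normalization. The submitters' notes name HISAT2 2.0.4 and GRCh38 whereas the study's methods name GRCh37, and the counting tool, the annotation and the use of strand are not given in the sources used here. Gene positions were therefore taken from an annotation of GRCh37 by symbol, and sequences from RefSeq tables of GRCh38.p14.

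Counts were scaled to CPM with TMM factors (edgeR 4.0.16, R 4.3.3). Genes with at least 50 counts in HIEC6 or in 2 CRC lines were kept. Genes were called at a fold of 4 against the nearest CRC line with a floor of 3 counts. The calling rule was also run on simulated data, set with less spread between libraries than edgeR estimated here. That run therefore gives no error rate for these calls. No test across samples was made in the main analysis, and edgeR and DESeq2 (1.42.0) fits, in which the lone HIEC6 library was assumed to vary like the CRC lines, were alternatives with a Benjamini-Hochberg threshold of 0.05. Intervals are exact binomial intervals of the ratio of a pair of counts, and 1 library per line measures no spread within a line.

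The members and gene lists were chosen with earlier results of these data known. Genes were named if they belonged to the lists or to the HOX clusters, or were, in each direction, among the 15 called genes with the largest ratio or the 10 with the highest level. The keratin, collagen and MAGEA families and the miR-200 genes were added after values were seen. Sex-linked transcripts that could mark a donor were not named. Some items are not reported here.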

Additional observations from a re-analysis of the deposited data

Results flagged for a closer look

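HIEC6 transcripts in a library that the comparison did not use were looked at, since signal appeared there above the untreated CRC lines. For 65 genes with at least 1000 counts in HIEC6 and at most 10 in each untreated CRC line, the NCM460 library had a median of 0.21% of the HIEC6 level. The untreated CRC lines had 0.0114% (DLD1), 0.00724% (HCT116) and 0.0348% (HCT8), values that the choice of genes kept low. The hypoxia libraries, not used in that choice, had 0.0708% (DLD1), 0.0804% (HCT116) and 0.0165% (HCT8). FBN2 had 52 counts in NCM460, SRGN had 95 and EFEMP1 had 30. These larger shares, in NCM460 and in DLD1 and HCT116 under hypoxia, belong to the 3 libraries whose labels carry a second run name. The part of that run in the signal was not tested.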

How the results depend on the processing

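The count of higher genes (747) stayed within 1.5 times under total-count CPM, DESeq2 size factors, upper-quartile scaling, no filter, 6 CRC libraries, a floor of 10 counts and DESeq2's test, and so did that of lower genes (964). With at least 50 counts in every library, 112 genes were higher and 227 lower, since genes low on one side could no longer enter. A fold of 2 gave 1556 and 1923, a fold of 10 gave 473 and 526, and any amount outside the range gave 5158 and 5375. Leaving out 1 CRC line gave between 853 and 1144 higher and between 1099 and 1363 lower genes, and the highest counts of both came without HCT116. At an adjusted p under 0.05, edgeR called 8 genes higher and 0 lower (2828 in all at an unadjusted p under 0.05), and DESeq2 called 1008 higher and 1435 lower (390 and 848 shared). Over the genes past the filter on both sides, an alternative added after the data were seen, the Pearson correlation of HIEC6 went from 0.785 to 0.831 (DLD1), 0.8 to 0.821 (HCT116) and 0.771 to 0.824 (HCT8), and that of DLD1 and HCT8 from 0.927 to 0.915. Total-count scaling moved the median log2 ratio of all genes by -0.20 and upper-quartile scaling by -0.15. Of the values of named genes, 166 moved beyond the spread of the CRC lines and 1892 did not. No paired analysis was possible because HIEC6 has 1 library and shares fewer than 2 replicate numbers with the CRC lines. No depth within a line can replace the missing replicates.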
